A study of Mus musculus with 6 samples.

Results

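Transcripts of fetal liver and lung were followed in RNA from pooled mouse fetal hearts, through 10 of 35458 genes with a matched transcript. The genes were chosen by their reads per library in earlier results of these same libraries, so their levels are given as a description. The 6 liver genes were Alb (ENSMUSG00000029368), Afp (ENSMUSG00000054932), Apoa1 (ENSMUSG00000032083), Apoa2 (ENSMUSG00000005681), Ttr (ENSMUSG00000061808) and Apoc1 (ENSMUSG00000040564). The 4 lung genes were Sftpc (ENSMUSG00000022097), Sftpb (ENSMUSG00000056370), Nkx2-1 (ENSMUSG00000001496) and Epcam (ENSMUSG00000045394), of which Epcam is shared by many epithelia. For each gene, estimated reads were summed over its transcripts and given as CPM (reads relative to the library's total) after TMM scaling, a scaling that sets the libraries to a common level over most genes.

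The nano-TiO2 group was 3 pools of fetal hearts from wild-type FVB/NJ dams that breathed engineered nano-TiO2 in a whole-body chamber, at a target of 12 mg/m3 for 360 minutes a day on 6 non-consecutive days within 8 days, beginning on gestational day 5. The sham group was 3 pools from wild-type FVB/NJ dams given filtered room air. The study used 14 dams aged 10 weeks; hearts were taken on gestational day 15, each pool mixed male and female fetuses, and the number of litters in a pool is not stated. All p-values therefore reflect pool-to-pool spread, which may be technical in part. The libraries are the inputs of an m6A immunoprecipitation: total RNA was fragmented and sequenced without antibody.

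In the fetus the liver bud grows just below the heart and the lung buds lie on either side of it. Hepatocytes secrete albumin, alpha-fetoprotein, apolipoproteins and transthyretin into plasma, and in midgestation the liver is also the main site of red cell formation. The tips of the branching lung airways hold epithelial progenitors that carry the transcription factor NKX2-1, which drives the surfactant protein genes. In hepatocytes, HNF1 and C/EBP factors drive Alb and Afp, neighbouring genes of the same family, of which Afp is the fetal form and falls after birth while Alb stays high. Sftpc is the most selective of the lung genes for distal epithelium, and Epcam encodes an adhesion molecule on the surface of most epithelial cells.

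The promoters of Alb and Afp are shown because the balance between these neighbours differed between pools, as did that of other liver genes to Alb. They are the 250 bases before the gene start in RefSeq's table for GRCm38.p6, on the + strand, at chr5:90460620-90460869 for Alb and chr5:90490464-90490713 for Afp. Capitals mark the letters searched, on both strands. GTTAAT is a half-site of HNF1, TATAAA is known as the TATA box, CCAAT (also marked where it lies on the opposite strand) is bound by several factors, and CAAGTG is a site of the NKX2 type. No marked stretch overlaps another.
Alb: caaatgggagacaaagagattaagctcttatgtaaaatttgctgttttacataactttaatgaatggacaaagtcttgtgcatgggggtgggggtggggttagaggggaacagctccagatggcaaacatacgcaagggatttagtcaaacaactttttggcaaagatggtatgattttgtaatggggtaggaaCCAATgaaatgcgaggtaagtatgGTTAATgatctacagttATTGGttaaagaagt
Afp: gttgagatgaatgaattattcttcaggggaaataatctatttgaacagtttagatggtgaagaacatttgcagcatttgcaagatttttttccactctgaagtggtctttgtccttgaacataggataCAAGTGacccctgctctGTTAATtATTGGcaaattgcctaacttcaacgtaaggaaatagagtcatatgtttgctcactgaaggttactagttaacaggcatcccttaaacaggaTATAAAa
Both windows held GTTAAT, beginning 32 bases before the Alb start and 105 bases before the Afp start. Of 32851 promoters in the table, 6.43% held GTTAAT in a window of the same length. The share was 12.4% for TATAAA, 33.8% for CCAAT and 11.6% for CAAGTG. The windows of Apoa1, Sftpb, Nkx2-1 and Epcam held none of these letters, and those of Apoa2, which has more than 1 start in the table, held CCAAT at each start and TATAAA at 1 of them. Promoters of Ttr, Sftpc and Apoc1 are not shown.

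Heart muscle genes were abundant in all 6 pools. The 16 cardiomyocyte genes summed to 54904, 41659 and 51951 CPM in nano-TiO2 pools 1, 2 and 3, against 58612, 63965 and 69176 CPM in sham pools 1, 2 and 3. Assigned reads were 15087914, 12795647 and 21391972 in nano-TiO2 pools, against 22565326, 17049820 and 22414924 in sham pools. Sham 2 and nano-TiO2 3 stood apart from the rest for the genes described here, sham 2 for liver genes and nano-TiO2 3 for lung genes, and nano-TiO2 1 was close to free of both.

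Alb, the main plasma carrier protein, had 1.09, 2.68 and 9.62 CPM in nano-TiO2 pools, against 3.26, 156.4 and 18.7 CPM in sham pools. Sham 2 was 48.0-fold above the median of the other 5 pools, and the groups overlapped, since nano-TiO2 3 was above sham 1. The values rest on 18, 43 and 233 estimated reads in nano-TiO2 pools, against 69, 2093 and 368 in sham pools. In order of level, nano-TiO2 2 and sham 1 were the only neighbours whose 95% counting intervals overlapped, at 1.94 to 3.62 and 2.54 to 4.12 CPM.

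Afp, the fetal counterpart of albumin, had 0.364, 5.74 and 7.93 CPM in nano-TiO2 pools, against 5.48, 204.6 and 15.4 CPM in sham pools. Sham 2 was again highest, nano-TiO2 1 lowest, and the groups overlapped. The counting intervals of sham 1 and nano-TiO2 2, and of nano-TiO2 2 and nano-TiO2 3, overlapped.

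Apoa1, the main protein of high-density lipoprotein, had 0.850, 2.87 and 4.46 CPM in nano-TiO2 pools, against 5.48, 225.2 and 15.0 CPM in sham pools. Apoa2, the second protein of the same particle, had 0.243, 2.31 and 2.68 CPM in nano-TiO2 pools, against 3.21, 159.4 and 8.29 CPM in sham pools. For both genes every nano-TiO2 pool lay below every sham pool, but sham 1 and nano-TiO2 3 were neighbours with overlapping counting intervals. Per unit of length, Apoa2 was the most abundant liver gene of sham 2, at 265.7 TPM, a unit corrected for transcript length, followed by Apoa1 at 177.9 TPM.

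Ttr, which carries thyroid hormone and retinol-binding protein in plasma, had 0.243, 1.75 and 1.98 CPM in nano-TiO2 pools, against 2.60, 93.9 and 6.87 CPM in sham pools. The groups did not overlap, and nano-TiO2 3 and sham 1 again had overlapping counting intervals.

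Apoc1, a small apolipoprotein also made by macrophages, had 3.46, 2.43 and 3.14 CPM in nano-TiO2 pools, against 5.38, 20.9 and 4.83 CPM in sham pools. It was the flattest liver gene: sham 2 was 6.03-fold above the median of the other pools, against 35.6- to 59.4-fold for the other 5 liver genes. Nano-TiO2 1, the pool lowest in the other 5, was the highest nano-TiO2 pool for Apoc1, although the counting intervals of the nano-TiO2 pools overlapped. Per unit of length it was the most abundant of the 6 liver genes in each nano-TiO2 pool, at 12.5, 11.4 and 11.9 TPM, and in sham 1, at 15.2 TPM, but the least abundant in sham 2, at 44.9 TPM.

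**Figure D1:**
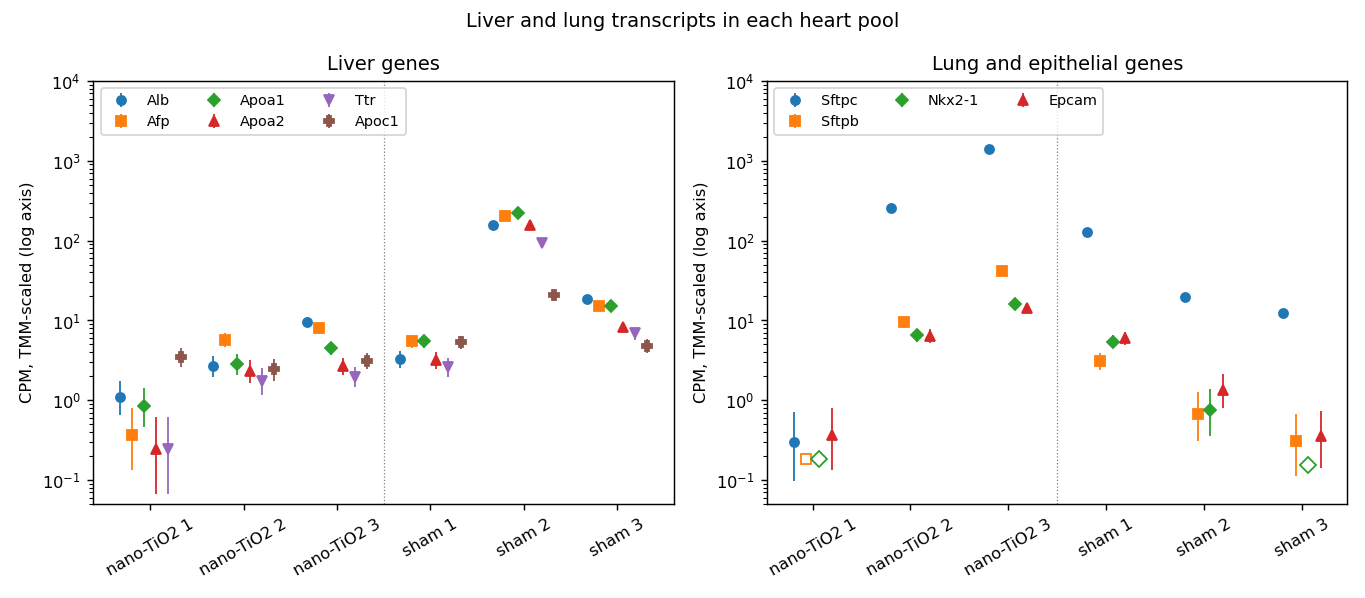
CPM (TMM-scaled, log axis) of the 6 liver genes (left) and the 4 lung and epithelial genes (right) in the nano-TiO2 and sham pools; bars are 95% counting intervals, and open symbols mark genes with 0 reads, drawn at the level of 3 reads. Sham 2 holds the highest value of every liver gene and nano-TiO2 3 that of every lung gene.

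Sftpc, the surfactant protein of alveolar type II cells and their distal-tip progenitors, had 0.303, 260.0 and 1392 CPM in nano-TiO2 pools, against 129.2, 19.5 and 12.3 CPM in sham pools. The nano-TiO2 pools held both the lowest and the highest value, 5 and 33712 estimated reads, so the groups overlapped throughout. At 2546 TPM, Sftpc ranked 45 among all genes of nano-TiO2 3 by level per length, against 271 in nano-TiO2 2 and 710 in sham 1. No counting intervals of neighbours overlapped for Sftpc.

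Sftpb, the surfactant protein needed for breathing at birth, had 0, 9.49 and 42.1 CPM in nano-TiO2 pools, against 3.07, 0.673 and 0.305 CPM in sham pools. No read in nano-TiO2 1 allows up to 0.182 CPM, the level of 3 reads, so nano-TiO2 3 was at least 231-fold higher than nano-TiO2 1. Sham 1 was the highest sham pool for Sftpb as for Sftpc, and the counting intervals of sham 2 and sham 3 overlapped.

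Nkx2-1, the transcription factor that marks lung and thyroid epithelium, had 0, 6.49 and 16.0 CPM in nano-TiO2 pools, against 5.43, 0.747 and 0 CPM in sham pools. It was at 0 reads in 1 pool of each group, with sham 3 allowing up to 0.153 CPM, and nano-TiO2 2 and sham 1 could not be told apart by their counting intervals. Epcam had 0.364, 6.37 and 14.2 CPM in nano-TiO2 pools, against 5.95, 1.35 and 0.356 CPM in sham pools. Its order matched that of Nkx2-1 in the 3 richest pools, nano-TiO2 3, nano-TiO2 2 and sham 1.

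Within each group the pools differed by more than the groups' averages can show. Alb averaged 4.47 ± 4.54 CPM in nano-TiO2 pools and 59.5 ± 84.3 CPM in sham pools (SD, n = 3 each), a log2 difference of -3.68 ± 1.55 (nano-TiO2 over sham, ± SE, edgeR). The other liver genes differed by -1.76 (Apoc1) to -4.97 (Apoa2) and the lung genes by 1.44 (Epcam) to 3.62 (Sftpb). Across all 13930 genes tested, 28.2% were called at an adjusted p under 0.05, 15.5% higher and 12.8% lower (2154 and 1781 genes, against 4270 and 50 with library totals in place of TMM scaling). Of the 10 genes, all of which passed the filter on low counts, 1 was called, Apoc1, lower in nano-TiO2 pools with an edgeR adjusted p of 0.0481; the adjusted p of the other 9 ran from 0.0756 to 0.476. The groups did not overlap for 4 of the 10 genes (Apoa1, Apoa2, Ttr and Apoc1), all lower in nano-TiO2 pools, where 45.7% of all genes did not overlap, 22.4% in that direction. Since these contrasts come from the libraries in which the genes were chosen, nothing is read from those counts.

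Those differences leaned on single pools. Without sham 2 the liver genes ranged from -0.75 (Apoc1) to -1.84 (Apoa1), and Alb was at -1.22. Without nano-TiO2 3 the lung genes were at 1.27 (Sftpc), 1.78 (Sftpb), 0.63 (Nkx2-1) and 0.38 (Epcam). Apoc1 lost its call in 13 of 18 alternatives, among them leaving out any nano-TiO2 pool or sham 2 (adjusted p = 0.122 by edgeR without sham 2), with adjusted p between 0.00372 and 0.258 over all of them. In bulk RNA, fewer cells of a type and less RNA per cell cannot be told apart.

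The 6 liver genes together made up 6.25, 17.8 and 29.8 CPM in nano-TiO2 pools, against 25.4, 860.4 and 69.1 CPM in sham pools. As a share of unscaled reads that was 0.0675% in sham 2 and 0.000683% in nano-TiO2 1. The 4 lung genes made up 0.667, 282.3 and 1465 CPM in nano-TiO2 pools, against 143.7, 22.3 and 12.97 CPM in sham pools. Liver and lung signals did not go together: for each read of a lung gene there were 9.36, 0.0630 and 0.0204 reads of a liver gene in nano-TiO2 pools, against 0.177, 38.6 and 5.33 in sham pools. Nano-TiO2 1 was the lowest pool in both sums, and no pool was high in both.

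**Figure D2:**
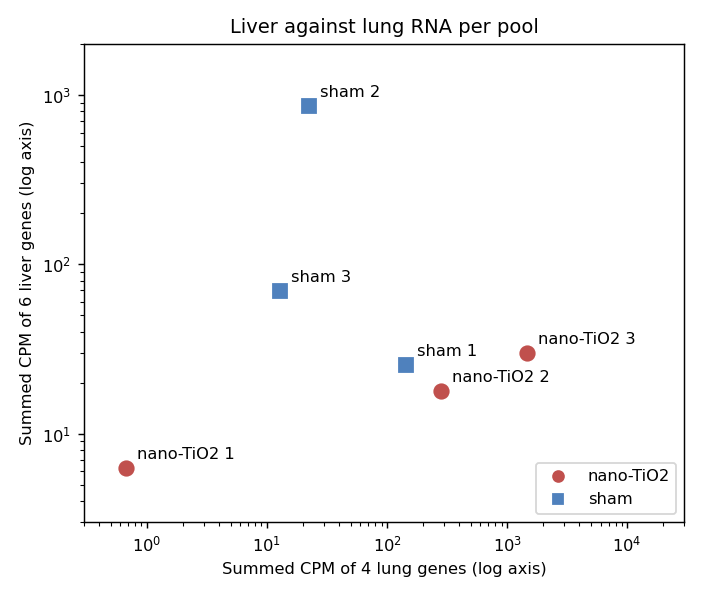
Summed CPM of the 6 liver genes against that of the 4 lung genes in each pool, both on log axes; circles are nano-TiO2 pools and squares sham pools. Sham 2 (860.4 liver CPM) and nano-TiO2 3 (1465 lung CPM) lie far apart, and nano-TiO2 1 lies lowest on both axes.

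The proportions among the liver genes differed between pools. Counted in reads, Afp over Alb was 0.333, 2.14 and 0.824 in nano-TiO2 pools, against 1.68, 1.31 and 0.821 in sham pools. Nano-TiO2 2 (95% counting interval 1.47 to 3.15), sham 1 (1.24 to 2.30) and sham 2 (1.24 to 1.38) had more Afp than Alb reads. Sham 3 (0.703 to 0.958) had fewer, nano-TiO2 3 reached 1.00 at the upper end of its interval, and nano-TiO2 1 had only 6 and 18 reads. Among the 5 pools with at least 20 reads of both genes the ratio spanned 2.61-fold, and 2.61-fold again as a ratio of TPM and 2.75-fold in the bin table, a separate count of reads along each gene.

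The other secreted proteins also varied relative to Alb. Apoa1 over Alb was 0.778, 1.07 and 0.464 in nano-TiO2 pools, against 1.68, 1.44 and 0.802 in sham pools. Ttr over Alb was 0.222, 0.651 and 0.206 in nano-TiO2 pools, against 0.797, 0.600 and 0.367 in sham pools. Nano-TiO2 3 and sham 3 were the lowest of the 5 pools with enough reads in both ratios and in Apoa2 over Alb, which spanned 3.65-fold. Apoc1 over Alb spanned most, 12.4-fold, with sham 1 at 1.65 and sham 2 at 0.133.

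Lung genes also shifted among themselves, though not Nkx2-1 against Epcam in the 3 pools with at least 20 reads of each gene. There Nkx2-1 over Epcam was 1.02 in nano-TiO2 2 and 1.13 in nano-TiO2 3, against 0.913 in sham 1, with overlapping counting intervals. Nano-TiO2 1 and sham 3 had 0 Nkx2-1 reads beside only 6 and 7 Epcam reads. Their intervals, up to 0.849 and 0.694, lay below that of nano-TiO2 3 (0.970 to 1.30). Sftpc over Epcam was 40.8 and 98.0 in nano-TiO2 2 and nano-TiO2 3, against 21.7 in sham 1. Sftpb over Epcam was 1.49 and 2.96, against 0.516. So each Epcam read came with 4.51 times as many Sftpc reads and 5.74 times as many Sftpb reads in nano-TiO2 3 as in sham 1, with intervals apart. Sftpc over Sftpb varied less, at 27.4 and 33.1 in the nano-TiO2 pools, against 42.1 in sham 1, a span of 1.54-fold in reads and 1.26-fold in the bin table.

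Embryonic globin genes are expressed in the first red cells from the yolk sac and fade by midgestation. They separated the pools in the same way as Afp over Alb. The split was not particular to Afp: Apoa1, Apoa2 and Ttr over Alb were also highest in nano-TiO2 2, sham 1 and sham 2. Apoc1 over Alb did not follow it and was lowest in sham 2. Hbb-y had 60.3, 3156 and 41.3 CPM in nano-TiO2 pools, against 4341, 2296 and 107.8 CPM in sham pools, and Hba-x had 30.4, 677.1 and 24.4 CPM, against 910.1, 603.5 and 40.0 CPM. The 3 pools rich in Hbb-y, nano-TiO2 2, sham 1 and sham 2, were those with more Afp than Alb reads. Sftpc over Epcam did not separate the pools in this way. Of the pools poor in Hbb-y, nano-TiO2 3 had the highest ratio, 98.0, and nano-TiO2 1 the lowest, 0.833 on 5 and 6 reads. Sham 3, also poor in Hbb-y, was at 34.6 with only 7 Epcam reads. The pools rich in Hbb-y were at 40.8 (nano-TiO2 2), 21.7 (sham 1) and 14.5 (sham 2, 18 Epcam reads). This is a description over 6 pools, the part of embryonic red cells in the ratios was not tested, and both kinds of pool occur in each exposure group.

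**Figure D3:**
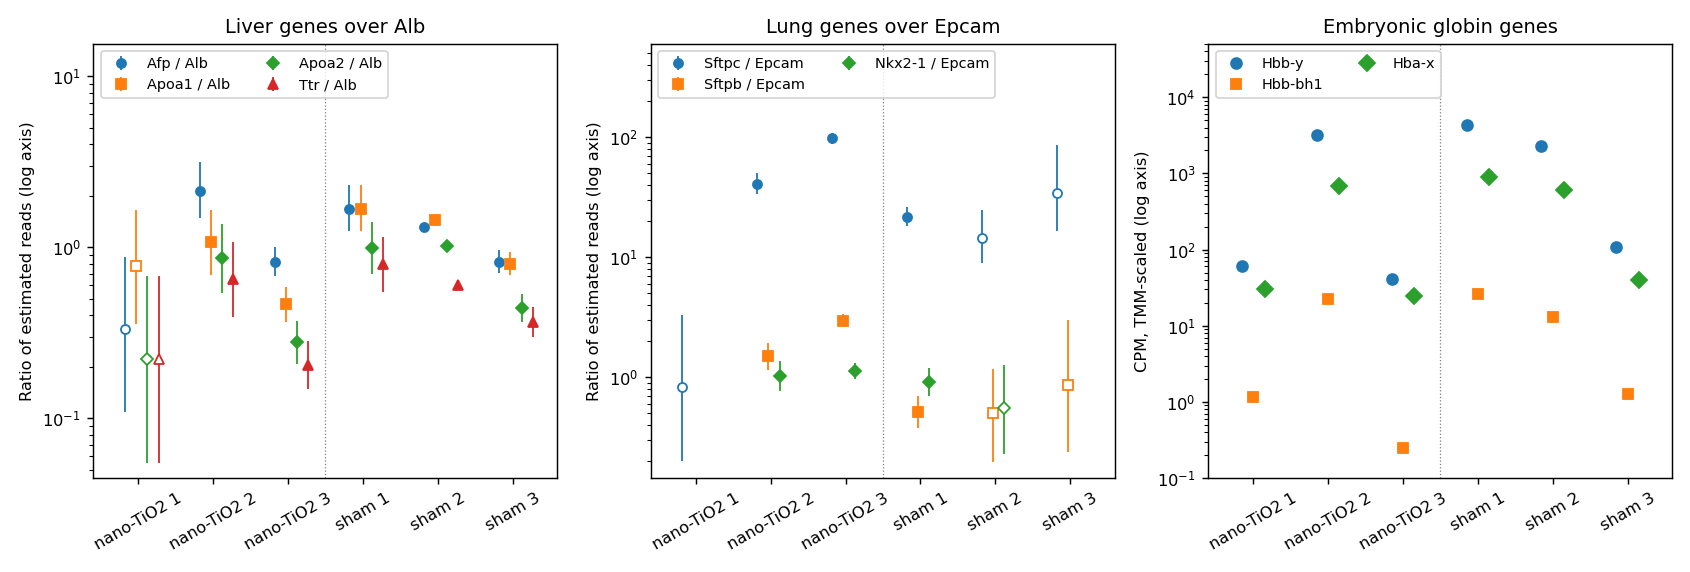
Ratios of estimated reads of liver genes over Alb (left) and lung genes over Epcam (middle) and CPM of 3 embryonic globin genes (right), by pool, all on log axes; bars are 95% counting intervals, open symbols have under 20 reads of a gene, and a ratio of 0 is not drawn. Nano-TiO2 2, sham 1 and sham 2 have both the highest Afp over Alb (1.31 to 2.14) and the highest Hbb-y (2296 to 4341 CPM). The same pools are highest in Apoa1, Apoa2 and Ttr over Alb.

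Reads along the genes lay in similar places in rich and poor pools. All Alb reads went to the full coding transcript Alb-201 in the 5 pools with at least 20 reads, and at least 98.8% of Sftpc reads to Sftpc-201. Of 3 equal parts of the joined exons, the first held 30.2% and 31.9% of Sftpc reads in nano-TiO2 2 and nano-TiO2 3. In the sham pools it held 32.5%, 33.0% and 28.3%. Alb reads leaned to the last of the 3 parts, with 72.5% and 62.3% there in nano-TiO2 2 and nano-TiO2 3, against 79.7%, 57.3% and 64.2% in the sham pools. The parts were taken over all bins of the gene. For Alb these include bins without a read in any pool, from base 76 to base 351 and from base 2201 to base 2301. The size of the lean therefore depends in part on them. For Sftpc they include bins without a read in any pool from base 1 to base 110. Sftpc bins from base 585 to base 785 held at most 6 reads each in any pool. The Sftpc shares depend in part on these bins too. For genes with near-identical transcripts the split is uncertain: 71.1% to 77.9% of Sftpb reads were assigned to Sftpb-202, annotated as a target of nonsense-mediated decay, and the rest mostly to a coding transcript, while the share of Apoa2 reads assigned to Apoa2-201 differed by pool.

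**Figure D4:**
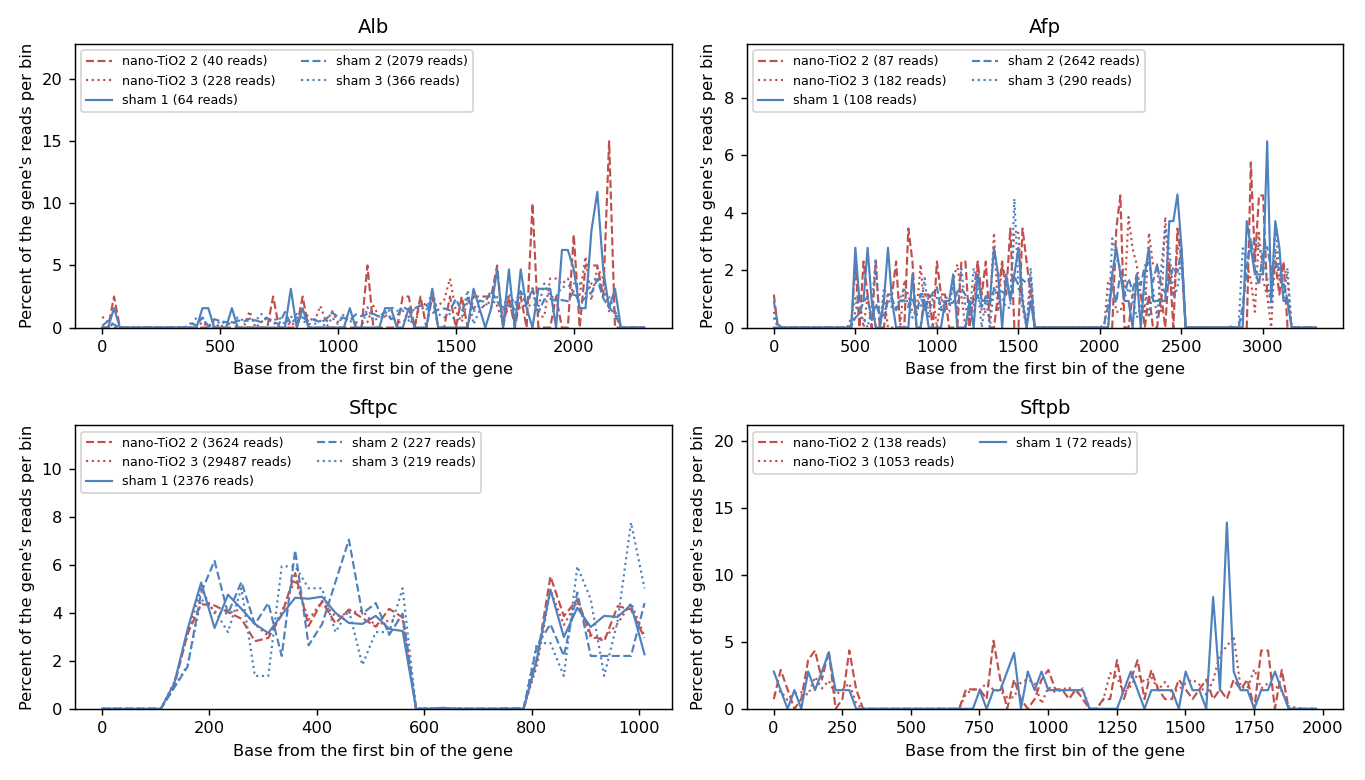
Percent of a gene's reads in each bin of the bin table against the position of the bin from the first bin of the gene, for Alb, Afp, Sftpc and Sftpb, in pools with at least 20 reads of the gene; red lines are nano-TiO2 pools and blue lines sham pools. The covered stretches are similar in rich and poor pools, from 29487 Sftpc reads in nano-TiO2 3 to 219 in sham 3.

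Other hepatocyte genes followed the liver genes. The list of 42, none of them among the 6, summed to 47.7, 70.5 and 94.1 CPM in nano-TiO2 pools, against 78.4, 1421 and 132.2 CPM in sham pools. All 40 with any read were highest in sham 2 (37 of 40 with library totals in place of TMM scaling), and 29 were lowest in nano-TiO2 1, 6 of them tied with another pool at 0. Of 23 tested, 0 were called by edgeR and 0 by limma-voom, where edgeR called 28.2% of all genes. In edgeR 12 reached an unadjusted p under 0.05, as did 5855 of all 13930 genes tested. DESeq2 called 8 lower among the 14 to which it gave an adjusted p, and 2300 lower among all 13639 such genes. The median log2 difference of the hepatocyte genes tested was -3.27, beside -0.01 for all genes, and -0.64 without sham 2. Without sham 1 edgeR called 7 lower, beside 552 of all 14097 genes tested. Without sham 3 it called 1 lower, beside 1132 of all 14144. Trf (transferrin) had 27.1, 37.7 and 48.1 CPM in nano-TiO2 pools, against 43.6, 567.3 and 63.1 CPM in sham pools, and Ahsg (fetuin-A) had 5.34, 4.99 and 10.1 CPM, against 7.46, 161.2 and 16.4 CPM. Rbp4, which carries retinol in plasma bound to transthyretin, had 1.94, 4.81 and 5.12 CPM in nano-TiO2 pools, against 4.67, 115.6 and 7.17 CPM in sham pools. Serpina6, Serpinf2 and Kng1 had 38.1 to 94.6 CPM in sham 2 and at most 3.20 CPM in any other pool.

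Red cell genes were highest in the same pool. Of 19 erythroid genes tested, 16 were highest in sham 2. By edgeR 9 were called lower and 0 higher in nano-TiO2 pools, beside 12.8% and 15.5% of all genes. At an unadjusted p under 0.05 in edgeR there were 11, beside 5855 of all 13930 genes tested. The median log2 difference of the erythroid genes was -1.47. The count called lower was 10 by DESeq2 but 1 with library totals, 2 by limma-voom and 0 with no filter on low counts. Leaving out 1 pool, 0 were called lower without nano-TiO2 1 or nano-TiO2 3, 1 without nano-TiO2 2, 2 without sham 1, 4 without sham 2 and 8 without sham 3. They summed to 93306, 45540 and 83573 CPM in nano-TiO2 pools, against 133053, 300033 and 121012 CPM in sham pools. Klf1, the master regulator of red cell precursors, had 0.485, 0.874 and 0.702 CPM in nano-TiO2 pools, against 4.34, 42.3 and 2.44 CPM in sham pools. Endothelial, macrophage and stellate markers of liver (6 genes) summed to 8.80, 10.2 and 8.51 CPM in nano-TiO2 pools, against 9.44, 17.9 and 8.59 CPM in sham pools. Of these 6, 2 were highest in sham 2. Fcna had 6.43 CPM there and at most 2.25 CPM in any other pool, and Cd5l had 2.84 CPM and at most 0.437 CPM. The part of red cell genes and of these 6 markers in the liver gene values was not tested.

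Other lung epithelial genes were highest where Sftpc was. Of the 17, 15 were highest in nano-TiO2 3 (14 with library totals) and 16 lowest in nano-TiO2 1, 4 of them tied with another pool at 0. The list summed to 45.0, 126.7 and 247.9 CPM in nano-TiO2 pools, against 113.6, 70.2 and 54.5 CPM in sham pools. Of 13 tested, 0 were called by edgeR, DESeq2 or limma-voom, where edgeR called 28.2% of all genes. In edgeR 1 reached an unadjusted p under 0.05, beside 5855 of all 13930 genes tested. The median log2 difference was 1.53, or 0.27 without nano-TiO2 3. Without nano-TiO2 1 edgeR called 4 higher, beside 864 of all 14462 genes tested. Ager, a receptor of alveolar type I cells, had 0.850, 13.2 and 55.9 CPM in nano-TiO2 pools, against 7.56, 2.24 and 1.07 CPM in sham pools. Cldn18, a tight junction protein with a lung isoform, had 0, 11.5 and 44.2 CPM in nano-TiO2 pools, against 7.60, 1.196 and 0.0509 CPM in sham pools. Etv5 and Abca3 were present in every pool: Etv5, a transcription factor of the lung tip, had 19.3, 43.9 and 40.6 CPM, against 51.4, 30.9 and 21.5 CPM in sham pools, and Abca3, a surfactant lipid transporter, had 18.6, 24.5 and 24.8 CPM, against 19.0, 24.0 and 21.5 CPM. Lgi3 reached 14.7 CPM in nano-TiO2 3 and 10.6 CPM in sham 1, and Wnt7b, a ligand of the lung epithelium, 5.12 CPM in nano-TiO2 3 and 8.50 CPM in sham 1.

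Genes of lung mesenchyme were high in the same pools. The 5 of them, led by Wnt2, Foxf1 and Hhip, summed to 4.79, 20.7 and 30.4 CPM in nano-TiO2 pools, against 22.1, 7.78 and 3.41 CPM in sham pools. Foxf1, a transcription factor of lung mesenchyme, had 0.182, 5.18 and 7.93 CPM in nano-TiO2 pools, against 4.96, 0.747 and 0.458 CPM in sham pools. Of the 5, 1 was called higher in nano-TiO2 pools by edgeR, beside 15.5% of all genes called higher. It was Fgf10, the growth factor that guides lung branching and is also made in the heart field. Fgf10 had 1.09, 2.38 and 3.47 CPM in nano-TiO2 pools, against 0.897, 0.523 and 0.407 CPM in sham pools. Its log2 difference was 1.91 ± 0.53 (edgeR adjusted p = 0.0305). Unlike the sum of the list, Fgf10 was higher in nano-TiO2 1 than in sham 1. No gene of the list was called by edgeR without nano-TiO2 2, nano-TiO2 3, sham 2 or sham 3, where the lowest adjusted p was 0.0525, 0.121, 0.0937 and 0.0675 in that order.

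Genes of epithelia in general had a floor in every pool. The 20 genes summed to 97.0, 222.0 and 261.9 CPM in nano-TiO2 pools, against 241.8, 172.1 and 109.5 CPM in sham pools. By edgeR, DESeq2 or limma-voom 0 of 19 tested were called, where edgeR called 28.2% of all genes. In edgeR 0 of them reached an unadjusted p under 0.05, beside 5855 of all 13930 genes tested. Krt19, Krt18, Krt8 and Krt7, keratins that mesothelium also makes, carried most of this, with Krt19 at 44.1, 76.8 and 67.1 CPM in nano-TiO2 pools, against 86.3, 76.8 and 49.0 CPM in sham pools. Cldn3 and Cldn6, tight junction proteins, ranged more widely, with Cldn6 at 0, 7.68 and 9.71 CPM in nano-TiO2 pools, against 10.4, 0.822 and 0.0509 CPM in sham pools.

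**Figure D5:**
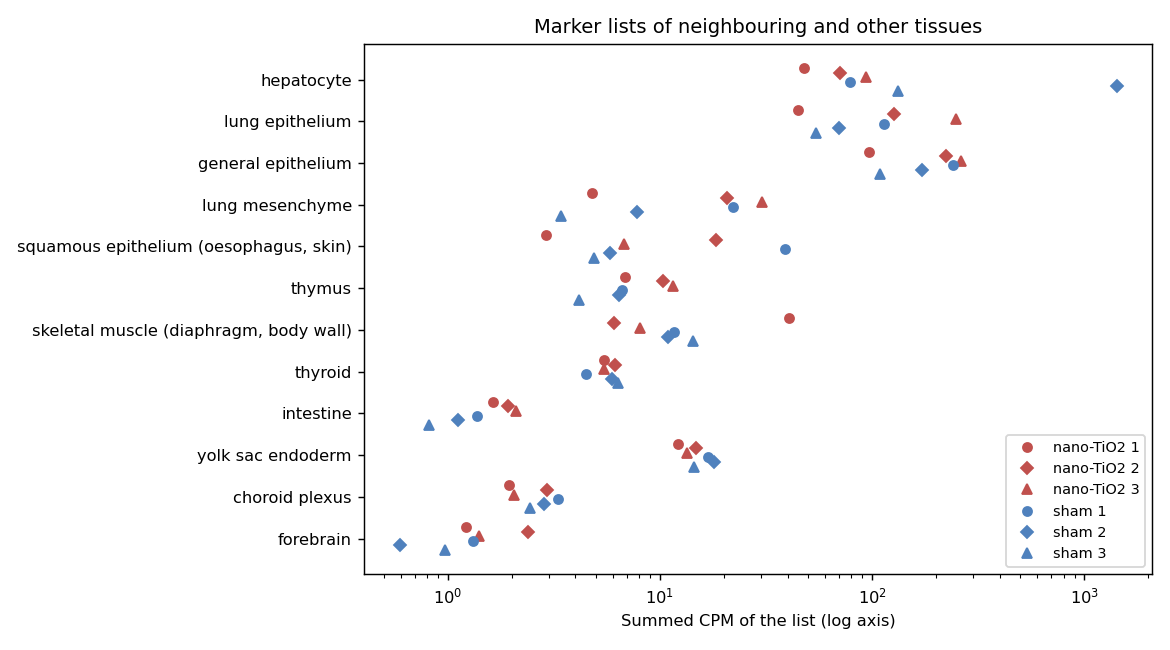
Summed CPM (log axis) of marker lists of liver, lung and other tissues in each pool; red symbols are nano-TiO2 pools and blue symbols sham pools, and the genes described by name at the start are not in the hepatocyte, lung and general epithelium lists. Sham 2 stands apart in the hepatocyte list at 1421 CPM, and nano-TiO2 3 is highest in the lung epithelium list at 247.9 CPM.

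The genes outside the 10 whose profile over the 6 pools was closest to that of Alb were Fga, Fgb and Fgg, which encode the chains of fibrinogen, then Kng1, Serpina1b and Serpinf2. Their root-mean-square distance on centred log2(CPM + 0.5) was 0.433 to 0.607, as near as Apoa1 (0.567), Ttr (0.585), Afp (0.633) and Apoa2 (0.651), and nearer than Apoc1 (1.47). Serpina1b belongs to a family of near-identical copies, so its reads are uncertain. Closest to Sftpc were Cldn18 (1.42), Ager (1.79), Cldn6 (1.91), Cdh1 (1.93), Muc1 (1.93) and Sftpa1 (2.04), beside Sftpb at 1.53, Nkx2-1 at 1.76 and Epcam at 2.06. On this distance Sftpc had no neighbour as close as those of Alb. The distance depends in part on level, through the 0.5 CPM added, and Sftpc ranged from 0.303 to 1392 CPM. Sftpa1, another surfactant protein gene, had 0, 4.37 and 17.2 CPM in nano-TiO2 pools, against 0.661, 0.374 and 0.407 CPM in sham pools.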

How the data were processed

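RNA was measured in 6 input libraries of pooled fetal hearts, 3 nano-TiO2 and 3 sham, made from 3 µg of RNA per sample, per the labels' protocols. Groups and numbers came from the titles. Salmon made the deposited estimated counts per transcript and the deposited TPM values, per the file headers. A deposited table gives a signal for bins of about 25 bases within genes; 100% of its values became whole reads (tolerance 0.001) once multiplied by a size factor per library. HISAT2 2.2.1, Salmon 1.5.2 and DESeq2 1.34.0 are named, with no roles, in the submitters' processing notes; how strand was treated is not given in the sources used. Of 116747 transcripts, 115685 matched GENCODE M21 (35458 genes); the other 1062 held 0.597% to 0.770% of reads and were left out.

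Estimated counts were summed per gene, rounded and fitted with edgeR 4.0.16 (quasi-likelihood, robust, TMM, filterByExpr, group only) at a Benjamini-Hochberg adjusted p under 0.05; SE is the log2 difference over the square root of F. DESeq2 1.42.0 and limma 3.58.1 (R 4.3.3) were alternatives, with other scalings, filters, libraries left out, TPM and the bin table. On simulated data, 13677 genes for this comparison, 200 genes were changed by the same amount in all 3 nano-TiO2 pools. There edgeR recovered 53% of changes of 1 and 88% of changes of 2 on the log2 scale, with 4.73% false calls. DESeq2 made 19.8% false calls. These rates do not cover differences carried by a single pool, as in the liver and lung genes. Intervals (95%, exact Poisson or Clopper-Pearson) and the 3-read floor cover counting error only. Replicate numbers did not pair the libraries. Named are the 10 genes, up to 6 of each list by highest mean CPM, the 6 closest to Alb and to Sftpc among genes of at least 1 CPM on average, and Hba-x, Klf1 and genes of small counts, chosen after their values were seen. Genes and lists were chosen with earlier results of these data known.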

Additional observations from a re-analysis of the deposited data

How the results depend on the processing

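The 10 genes kept the direction of their difference in all 18 alternatives, over -5.47 to -0.74 for liver and 0.13 to 5.28 for lung genes (log2, nano-TiO2 over sham). By DESeq2, Alb (-3.73), Afp (-4.01), Apoa1 (-4.91) and Ttr (-4.70) were also called and Apoa2 got no adjusted p. Scaling moved the balance of calls: 2154 genes higher and 1781 lower by edgeR became 4270 and 50 with library totals, where the median gene was at 0.41, 4532 and 16 with limma on log2(TPM + 1), and 4489 and 15 on log2(TPM + 0.1). Leaving out 1 library gave 864 to 2190 higher and 425 to 2082 lower, the fewest higher without nano-TiO2 1 and the fewest lower without sham 2. Leaving out sham 2 and nano-TiO2 3 together left 0 and 0 by edgeR, with 3350 genes at an unadjusted p under 0.05. Same-numbered libraries of the groups did not deviate together (r = -0.39, 0.02 and -0.08), and the replicate block left 1262 higher and 795 lower, 4 hepatocyte, 3 erythroid and 4 cardiomyocyte genes lower. Hepatocyte genes called lower (0) became 1 with no filter, 8 by DESeq2 and 0 to 7 when leaving out 1 library (7 without sham 1, 1 without sham 3). Lung epithelium genes called higher (0) became 1 on log2(TPM + 1) and 0 to 4 when leaving out 1 library (4 without nano-TiO2 1), and general epithelium genes (0) became 1 with library totals. Erythroid genes called lower (9) became 1 with library totals, 5 with upper-quartile factors, 0 with no filter, 2 by limma-voom, 1 on each TPM scale, 5 in the bin table, 0 without sham 2 and nano-TiO2 3, and 0 to 8 when leaving out 1 library (0 without nano-TiO2 1 or nano-TiO2 3). Of 16 cardiomyocyte genes tested, edgeR called 2 higher and 7 lower, beside 15.5% and 12.8% of all genes. Those called higher became 6 on each TPM scale, 0 without sham 2 and nano-TiO2 3, and 1 to 2 when leaving out 1 library. Those called lower became 0 with library totals, on each TPM scale and without those 2 pools, and 1 to 7 when leaving out 1 library. Sham 2 over the median of the other pools in the liver sum (33.9) became 28.3 with library totals, 19.4 in TPM, 26.4 in the bin table and 41.9 without Apoc1. Nano-TiO2 3 over the median in the lung sum (65.8) became 94.8 with library totals, 120.8 in TPM, 80.1 with totals less erythroid genes, 109.1 in the bin table and 26.1 without Sftpc. The cause was not tested in these cases. Ratios in nano-TiO2 1 and lung ratios in sham 2 and sham 3 are limited by reads.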

Other observations

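Marker lists of other tissues near the heart summed to at most 40.6 CPM in any pool. Squamous genes of oesophagus and skin (5 genes) summed to 2.91, 18.5 and 6.77 CPM in nano-TiO2 pools, against 39.1, 5.83 and 4.88 CPM in sham pools; Krt15, a basal cell keratin, reached 30.1 CPM in sham 1, and Krt5 5.06 CPM in nano-TiO2 2 and 4.44 CPM in sham 1. Developmental skeletal muscle genes (7 genes) summed to 40.6, 6.05 and 8.05 CPM in nano-TiO2 pools, against 11.6, 10.9 and 14.4 CPM in sham pools, with the fetal myosins Myh8 and Myh3 at 21.0 and 15.4 CPM in nano-TiO2 1, the pool lowest in liver and lung genes. Thymus genes (10 genes) summed to 6.88, 10.3 and 11.5 CPM in nano-TiO2 pools, against 6.62, 6.43 and 4.14 CPM in sham pools. Of them 8 were highest in nano-TiO2 3 (7 with library totals), but only 2 of the 10 passed the filter on low counts. In nano-TiO2 3 Cd3e, a chain of the T cell receptor complex, had 0.702 CPM. Rag2 had 0.0413 CPM there, under the level of 3 reads, 0.124 CPM. Ccl25, the most abundant of the list, was highest in nano-TiO2 2.

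Lists of thyroid, yolk sac endoderm and choroid plexus spanned 1.42- to 1.70-fold over the 6 pools, and those of intestine and forebrain, at low levels, 2.59- and 3.99-fold. The thyroid list summed to 5.46, 6.12 and 5.45 CPM in nano-TiO2 pools, against 4.49, 5.98 and 6.36 CPM in sham pools, mostly Tg; thyroid shares Nkx2-1 with lung. Yolk sac endoderm genes, which share Afp, Apoa1 and Ttr expression with liver, summed to 12.2, 14.7 and 13.5 CPM in nano-TiO2 pools, against 16.9, 17.9 and 14.5 CPM in sham pools. Intestine genes summed to at most 2.11 CPM in nano-TiO2 pools and 1.37 CPM in sham pools, choroid plexus genes, which share Ttr, to at most 2.94 and 3.31 CPM, and forebrain genes to at most 2.38 and 1.32 CPM.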
